A study of Mus musculus and Homo sapiens with 352 samples.

Results

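This is an account of the CTCF binding sites of mouse B cells that had no counterpart in CH12, an established line grown from a mouse B cell lymphoma. A site was included when a peak of the B cell CTCF list overlapped no peak of the wild-type CH12 CTCF list by 1 bp or more. Of 59978 B cell peaks, 24900 met this rule and are called CH12-absent peaks. The other 35078 overlapped at least 1 of the 39438 CH12 peaks and are called shared peaks. The peaks were chosen by whether a peak was called at the same place in each list, so the split itself is a description and not a test. Raising the threshold of either list moved the CH12-absent share of 41.5% (95% interval 41.1 to 41.9). It was 19.3% among B cell peaks at or above the median fold, and 67.6% when CH12 peaks under the median score were left out.

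The B cell CTCF samples of the series came from wild-type splenic B cells. The name of the B cell list carries the prefixes that the labels use for resting and for activated B cells, and no single group of the labels matches it. The labels give 2 CTCF samples activated for 24 h, 2 activated for 30 h without hydroxyurea and 2 activated for 30 h with hydroxyurea. The libraries that entered the list are not named in the labels or headers. The CH12 list bears the name of the wild-type CH12 group, for which the labels give 3 CTCF samples. Chromatin loops came from CTCF ChIA-PET, a method that pulls down CTCF-bound chromatin and sequences pairs of DNA ends ligated within it. One library came from CH12 cells whose CTCF carries a mutation named for zinc fingers 9 to 11, and 1 library came from wild-type CH12 cells. All coordinates are in mm9.

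CTCF binds DNA through its zinc fingers at a motif that has an orientation. In the loop extrusion view of chromosome folding, cohesin moves along DNA until it meets bound CTCF, and many loops therefore end at CTCF sites. Many CTCF sites are occupied in most cell types, and others are occupied in some cell types and not in others. DNA methylation and nucleosome position at the motif are known to bear on occupancy.

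The CH12-absent peaks were weaker and narrower in the B cell list than the shared peaks. Their median fold over background was 4.62 (quartiles 3.69 and 6.27), against 7.66 (5.99 and 9.52) for shared peaks. Their median −log10 q-value, the authors' value for the significance of a peak call, was 18.0, against 84.5 for shared peaks. Their median width was 308 bp, against 520 bp for shared peaks. The 2 sets overlapped over nearly the whole range of fold, with CH12-absent peaks at 1.68 to 25.0 and shared peaks at 1.64 to 26.7. These values and those below describe 2 peak lists with no replicate list, so no p-value is given for them. Wilson 95% intervals cover counting error only and treat peaks as independent.

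**Figure D1:**
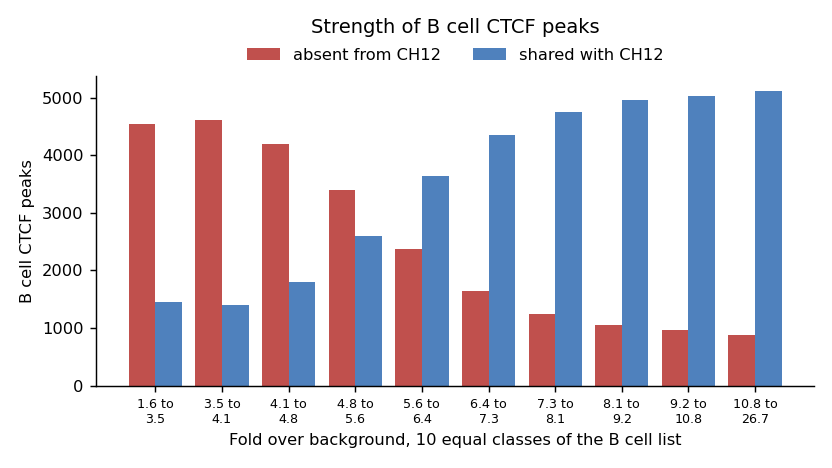
Number of CH12-absent (left bar) and shared (right bar) B cell peaks in 10 equal classes of fold over background, the authors' value. CH12-absent peaks outnumber shared peaks in the 4 lowest classes, and 887 of them lie in the highest class beside 5111 shared peaks.

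Width differed between the sets also at the same fold. In the lowest of 10 equal classes of fold, CH12-absent peaks had a median width of 244 bp and shared peaks 274 bp. In the fifth class the medians were 350 bp for CH12-absent peaks and 469 bp for shared peaks, and in the highest class they were 501 bp and 639 bp. The median −log10 q-value in the fifth class was 28.2 for CH12-absent peaks and 56.2 for shared peaks. A CH12-absent peak thus covered less sequence and had a lower −log10 q-value than a shared peak of like fold.

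Weak calls made up much of the set, but a part of it was strong. A −log10 q-value under 10 was found for 20.1% of CH12-absent peaks (95% interval 19.6 to 20.6) and for 3.02% of shared peaks (2.85 to 3.20). At or above the median fold of shared peaks were 3471 CH12-absent peaks, or 13.9% (13.5 to 14.4). At or above the median −log10 q-value of shared peaks were 1125, or 4.52% (4.27 to 4.78). The count of strong CH12-absent peaks therefore depends on whether fold or the −log10 q-value is used. The 3471 peaks at or above the shared median fold are called strong below.

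Of the 5 CH12-absent peaks with the highest fold, 3 lay on chromosome X. The highest of all lay on chromosome X at 104184027 to 104184733, with a fold of 25.0, and its nearest CH12 peak was 171 kb away. Chromosome 18 followed at 34252776 to 34253757 with a fold of 23.3, and chromosome 17 at 31573234 to 31573951 with a fold of 22.8. CH12 peaks lay 8.93 kb from the chromosome 18 peak and 6.36 kb from the chromosome 17 peak. Next were chromosome X at 149609165 to 149609861, with a fold of 22.8 and its nearest CH12 peak 339 kb away, and chromosome X at 94626537 to 94627285, with a fold of 22.2 and its nearest CH12 peak 1252 kb away. These 3 peaks on chromosome X lay in no loop of either ChIA-PET list, where a peak counted as inside a loop when its centre lay between the outer ends of the loop's 2 anchors. The chromosome 18 peak lay in 3 mutant and 5 wild-type loops, and the chromosome 17 peak in 5 mutant and 5 wild-type loops.

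Peaks just on either side of the rule were mostly weak. The 139 CH12-absent peaks within 100 bp of a CH12 peak had a median fold of 3.32 (quartiles 2.71 and 4.45, highest 11.8). The 38 shared peaks that overlapped one by 100 bp or less had a median fold of 3.15 (2.69 and 3.88, highest 8.59). The 3 CH12-absent peaks closest to a CH12 peak lay on chromosomes 7, 14 and 13. Their edges were 0, 4 and 7 bp from it, and their folds were 3.45, 3.87 and 2.87. The 3 shared peaks with the smallest overlaps lay on chromosomes 11, 9 and 3. They shared 2, 2 and 8 bp with a CH12 peak and had folds of 3.38, 2.77 and 2.45.

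CH12-absent peaks were found on every chromosome, at shares that differed between chromosomes. Among the autosomes their share of B cell peaks was lowest on chromosome 14, at 33.6% (31.6 to 35.5, 746 of 2223), and on chromosome 15, at 35.2% (33.3 to 37.1). It was highest on chromosome 12, at 46.5% (44.5 to 48.5, 1124 of 2418), and chromosome 16, at 45.6% (43.4 to 47.7). On chromosome X the share was 50.3% (47.6 to 52.9, 690 of 1372). The interval of chromosome X overlapped that of chromosome 12 and lay above that of chromosome 14. Chromosome Y had 5 B cell peaks and the CH12 list had none there, so all 5 were CH12-absent.

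Chromosome X stood apart in other ways. Its CH12-absent peaks had a median fold of 5.64 and its shared peaks 10.7, the highest medians of any chromosome apart from the 5 peaks of chromosome Y. Peaks were sparse on it, with 4.15 CH12-absent and 4.10 shared peaks per Mb, against 15.9 and 23.8 on chromosome 11, the densest. Among B cell peaks at or above the median fold of the list, 32.6% were CH12-absent on chromosome X (283 of 867), against 24.9% on chromosome 12 (302 of 1214) and 14.3% on chromosome 15 (175 of 1224). The median distance from a CH12-absent peak to a CH12 peak was 24.3 kb on chromosome X and 8.55 kb on chromosome 11. Inside mutant loops lay 25.2% of the CH12-absent peaks of chromosome X, against 75.3% of those of chromosome 11 and 70.8% of all B cell peaks of the genome. CH12 peaks were sparse there too, at 4.63 per Mb on chromosome X and 26.5 on chromosome 11. Shared peaks inside loops were not counted by chromosome, so the low share is not shown to be particular to CH12-absent peaks. The number of chromosome copies in the cells behind each list was not measured here.

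Windows of 1 Mb showed how the CH12-absent peaks were spread. Of 2282 windows with a B cell peak, the median window held 8 CH12-absent peaks (quartiles 3 and 16) and 11 shared peaks (quartiles 4 and 23). There was no CH12-absent peak in 165 of them. Windows with many shared peaks held many CH12-absent peaks, and across the 2282 windows Pearson's r was 0.747 and Spearman's rho 0.787. These windows share the same 2 lists and the uneven density of CTCF sites along the genome, so the correlation is given as a description.

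**Figure D2:**
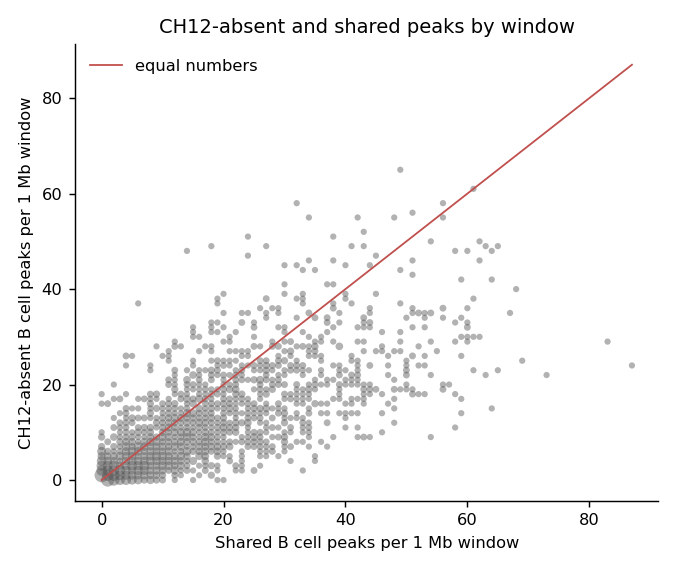
Number of CH12-absent B cell peaks against number of shared B cell peaks in each 1 Mb window. Each dot is a pair of values, larger where more windows share it. The line marks equal numbers. Most windows lie below the line, and windows at 0 on the horizontal axis hold CH12-absent peaks only.

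The windows richest in CH12-absent peaks were also rich in shared peaks. The window with most lay on chromosome 4 at 132000001 to 133000000, with 65 CH12-absent and 49 shared peaks. Chromosome 17 at 29000001 to 30000000 followed with 61 CH12-absent and 61 shared peaks, and chromosome 16 at 32000001 to 33000000 with 58 and 32. On chromosome 4, the windows at 133000001 to 134000000 and 135000001 to 136000000 held 58 and 56 CH12-absent peaks beside 56 and 51 shared peaks. In all 5 windows the CH12-absent peaks were of ordinary strength, with median folds of 4.06 to 4.83. ChIA-PET anchors, the ends of listed loops, numbered 11 to 26 per window in the mutant list and 13 to 26 in the wild-type list.

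The share of CH12-absent peaks within a window ran from none to all. Among the 1595 windows with 10 or more B cell peaks the median share was 40.9% (quartiles 30.6% and 50.0%). It was 80% or more in 25 windows and 20% or less in 119 windows. The count of 25 became 7 with B cell peaks at or above the median fold, 363 with the stronger CH12 peaks alone, 44 of 2239 windows of 500 kb and 8 of 1029 windows of 2 Mb. In 6 windows none of the B cell peaks was CH12-absent, and in 3 windows all were. The 3 without a shared peak lay on chromosome 16 at 89000001 to 90000000 (16 peaks, median fold 6.31), chromosome 2 at 68000001 to 69000000 (18 peaks, median fold 7.44) and chromosome 2 at 124000001 to 125000000 (10 peaks, median fold 6.26). They were followed by chromosome 16 at 76000001 to 77000000 and chromosome 5 at 127000001 to 128000000, where 16 of 17 B cell peaks each were CH12-absent. Neither ChIA-PET list had an anchor in these 5 windows. Each held at most 1 CH12 peak, and nearly all anchors carry a CH12 peak, so this lack of anchors was largely fixed in advance. The median fold was above the 4.62 of all CH12-absent peaks in each of the 5 windows.

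A CH12-absent neighbour was more frequent after a CH12-absent peak than after a shared peak. The B cell peak that followed a CH12-absent peak along the chromosome was also CH12-absent in 49.8% of cases (49.2 to 50.4), and the one that followed a shared peak was CH12-absent in 35.6% (35.1 to 36.1). The same comparison gave 45.5% after CH12-absent and 33.8% after shared peaks in the lowest class of fold, and 58.0% (54.7 to 61.2) and 37.0% (35.7 to 38.4) in the highest class. The gap between the sets was thus wider for strong peaks. The distance to the nearest other B cell peak of either kind was close in the 2 sets, at a median of 5.61 kb for CH12-absent peaks and 5.40 kb for shared peaks. Another CH12-absent peak lay at a median of 12.5 kb from a CH12-absent peak and 18.9 kb from a shared peak. The nearest shared peak was also at a median of 12.5 kb from a CH12-absent peak, and at 8.93 kb from another shared peak. CH12-absent peaks were thus about as near to shared peaks as to each other.

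Runs were defined as CH12-absent peaks in a row with neither a shared peak nor a CH12 peak between them. The 24900 peaks formed 12883 runs. A run of a single peak held 29.8% of them, and runs of 5 or more held 23.1%. The 91 runs of 10 or more peaks lay on 18 chromosomes and held 1173 peaks, or 4.71%. Counting CH12 peaks from the median score upward gave 10803 peaks, and counting B cell peaks from the median fold upward gave 105, so the length of runs depends on the thresholds of both lists.

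Peaks in long runs were stronger. The median fold was 4.43 for single peaks, 4.51 in runs of 2, 4.67 in runs of 3 to 4, 4.88 in runs of 5 to 9 and 5.45 in runs of 10 or more. Strong peaks made up 10.5% of single peaks and 27.4% of peaks in runs of 10 or more. Put the other way, 31.5% of strong CH12-absent peaks (30.0 to 33.1) lay in runs of 5 or more, against 21.7% (21.2 to 22.3) of the other CH12-absent peaks. The peaks of long runs were inside loops less often than single peaks. Inside mutant loops lay 37.2% of peaks in runs of 10 or more and 69.3% of single peaks, and inside wild-type loops 23.7% and 62.9%. Of all B cell peaks, 70.8% were inside mutant and 65.0% inside wild-type loops. Mutant loops covered 39.0% and wild-type loops 37.2% of the chromosome length up to the last B cell peak. The share of long-run peaks was thus near the covered share for mutant loops and below it for wild-type loops. Runs hold no CH12 peak by definition, and nearly all loop ends carry one.

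The longest run held 39 peaks over 1099 kb of chromosome 12, from 115286121 to 116385119. Its folds were 3.23 to 19.1 with a median of 7.74, and 20 of the 39 were strong. The nearest CH12 peaks on either side were 1146 kb apart. Within 1 Mb of the run lay 46 CH12 peaks, with a median score percentile of 41.0 in the CH12 list (4.58 to 99.7). The CH12 peaks bordering the run were weak, with scores of 113 and 104 in a stretch where scores ran from 101 to 3100. The same flanks held 44 shared B cell peaks with a median fold of 8.82. A further 43 CH12-absent peaks lay in these flanks, so the run was part of a wider stretch with 82 CH12-absent peaks.

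**Figure D3:**
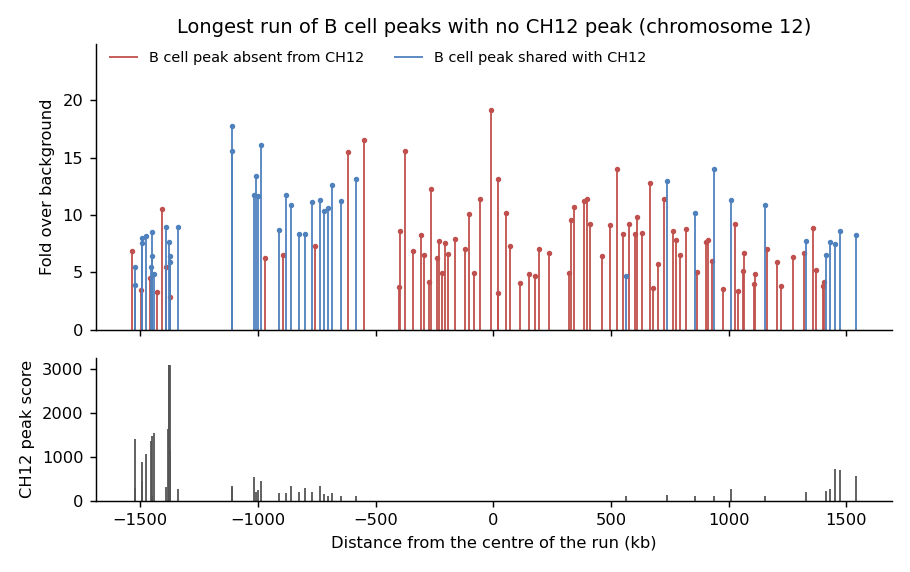
Top, fold over background of each B cell peak in and within 1 Mb of the longest run, plotted by distance from the centre of the run, with 82 CH12-absent and 44 shared peaks. Bottom, the authors' score of the 46 CH12 peaks in the same stretch. No CH12 peak lies between the ends of the run, which spans 1099 kb, and B cell peaks continue through it.

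The next run, on chromosome 1 from 91023700 to 91840726, held 26 peaks over 817 kb. Its folds were 2.85 to 22.04 with a median of 6.81. Unlike the chromosome 12 run it had few CH12-absent peaks around it, with 7 in its flanks of 1 Mb beside 42 shared peaks and 50 CH12 peaks. On chromosome 2, a run of 24 peaks covered 2619 kb from 66601069 to 69220079, with folds of 2.65 to 17.6 and a median of 7.15. On chromosome X, a run of 21 peaks covered 1057 kb from 149352707 to 150409412, with folds of 4.08 to 22.8. Its median of 10.0 was the highest of these runs and 15 of its 21 peaks were strong.

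The fifth of these runs was of another kind. It lay on chromosome 1 from 129742411 to 130176926 and packed 21 peaks into 435 kb, with folds of 2.36 to 11.2. Its median fold of 4.31 was below that of all CH12-absent peaks, and 2 of its 21 peaks were strong. One mutant loop spanned the run and held all 21 peaks, and no wild-type loop touched it. For the other 4 named runs, no loop of either list touched the run, and no anchor of either list lay in any of the 5. A run holds no CH12 peak by definition and nearly all anchors carry one, so the lack of anchors was largely fixed in advance. The loop lists leave out loops with under 3 tags, so a loop missing from a list is not shown to be absent.

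The gaps between neighbouring CH12 peaks gave another view of the same stretches. Of 39417 gaps, 32.7% held a CH12-absent peak. The density was 28.6 CH12-absent peaks per Mb in gaps of up to 10 kb, 22.6 at 10 to 50 kb, 17.1 at 50 to 100 kb, 8.43 at 100 to 500 kb and 1.78 in gaps over 500 kb. Long gaps between CH12 peaks were therefore mostly poor in B cell peaks as well. The longest gap with 3 or more CH12-absent peaks, on chromosome X from 111080100 to 130466124, was 19.4 Mb long and held 14 of them. It was followed by a gap of 6.29 Mb on chromosome 1 (99699558 to 105986451) with 7 and a gap of 5.53 Mb on chromosome 16 (78969936 to 84495610) with 4. The gap on chromosome 16 contained 1 wild-type anchor and no mutant anchor, and the other 2 contained no anchor of either list. Gaps hold no CH12 peak by definition, so their lack of anchors was also largely fixed in advance.

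Most CH12-absent peaks lay close to a CH12 peak. The median distance, edge to edge, was 11.7 kb (quartiles 4.01 and 29.5 kb) over the 24895 peaks on chromosomes with a CH12 peak. Shared peaks lie at a distance of 0 by the rule. Their next CH12 peak, other than those they overlapped, was at a median of 8.27 kb (2.94 and 20.8 kb). Over 100 kb away were 5.94% at 100 to 500 kb and 1.25% beyond 500 kb among CH12-absent peaks, against 3.04% and 0.248% among shared peaks. The 7.19% over 100 kb away became 11.5% among B cell peaks from the median fold upward and 18.0% with the stronger CH12 peaks alone. The 3 CH12-absent peaks farthest from a CH12 peak all lay in the 19.4 Mb gap of chromosome X, at 125838469 to 125838877, 126082204 to 126082540 and 126218233 to 126218473. They were 4.63, 4.38 and 4.25 Mb from one, with folds of 8.90, 4.73 and 3.82.

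Strength went up with distance from CH12 peaks. CH12-absent peaks within 1 kb of a CH12 peak had a median fold of 4.00. The median was 4.53 at 1 to 10 kb, 4.67 at 10 to 50 kb, 4.89 at 50 to 100 kb, 5.42 at 100 to 500 kb and 5.45 beyond 500 kb. Strong peaks made up 7.75% of those within 1 kb and 27.7% of the 310 beyond 500 kb. Over 100 kb from a CH12 peak lay 12.9% (11.8 to 14.1) of strong CH12-absent peaks and 6.26% (5.95 to 6.60) of the others. Shared peaks varied less between the same classes, with medians of 7.49 within 1 kb and 8.42 beyond 500 kb. The classes pool all chromosomes. The CH12-absent peaks of chromosome X were high in both measures, with a median fold of 5.64 and a median distance of 24.3 kb. The trend was not computed without chromosome X.

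**Figure D4:**
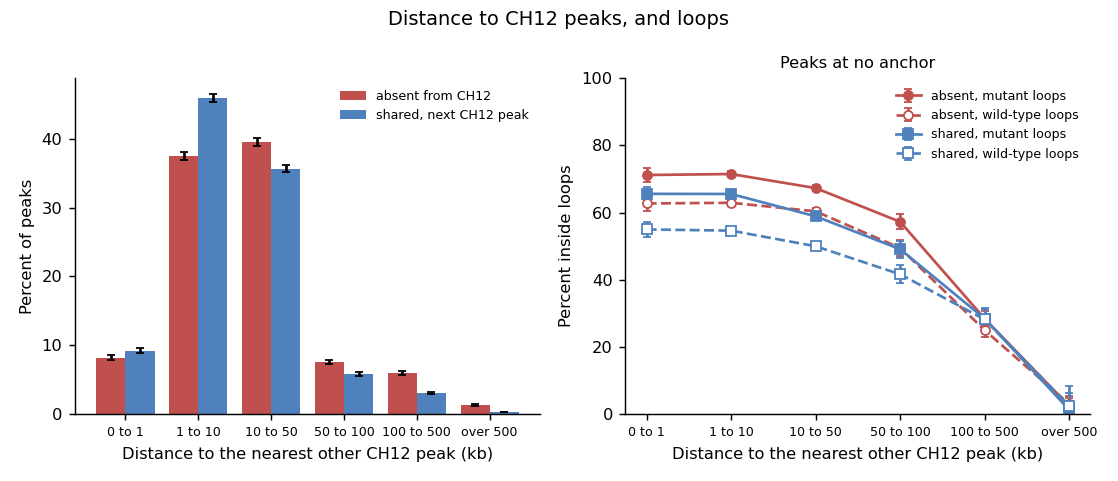
Left, percent of CH12-absent and shared peaks by distance to the nearest CH12 peak (for shared peaks, the nearest that they do not overlap). Right, percent of the peaks at no loop anchor that lay inside loops of the mutant and wild-type lists, by the same distance. Error bars are 95% Wilson intervals. Shares inside loops are low beyond 100 kb in both sets, and up to 100 kb CH12-absent peaks lie above shared peaks of the same list. The sets were not matched for fold.

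The next question was whether CH12-absent peaks lay inside the loops of CH12 cells. Mutant loops covered 39.0% and wild-type loops 37.2% of the 2638 Mb up to the last B cell peak of each chromosome. Inside mutant loops were 70.8% of all B cell peaks. The share was 65.7% (65.1 to 66.3) of CH12-absent and 74.4% (73.9 to 74.8) of shared peaks. Inside wild-type loops were 65.0% of all B cell peaks, with 58.5% (57.8 to 59.1) of CH12-absent and 69.7% (69.2 to 70.2) of shared peaks. In each list the share of CH12-absent peaks inside loops was above the covered share of the genome.

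The order of the 2 sets turned when peaks at loop anchors were left out. A peak at an anchor is inside its own loop almost by construction. This held for 12425 of 12430 shared and 376 of 390 CH12-absent peaks at mutant anchors, and for 13465 of 13476 shared and 410 of 426 CH12-absent peaks at wild-type anchors. Among peaks at no mutant anchor, 65.2% (64.6 to 65.8) of CH12-absent and 60.3% (59.7 to 60.9) of shared peaks were inside mutant loops. Among peaks at no wild-type anchor, 57.8% (57.2 to 58.4) of CH12-absent and 50.9% (50.2 to 51.5) of shared peaks were inside wild-type loops. The difference for wild-type loops was thus -11.3 percentage points over all peaks and 6.92 percentage points over peaks at no anchor. Leaving out anchors removed 38.4% of shared and 1.71% of CH12-absent peaks there, so the 2 comparisons are of different peaks and neither order is taken as that of the sets. The sets also differ in fold, which these shares do not take into account. Shares within classes of fold are given below.

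As a density, mutant loops held 15.9 CH12-absent peaks per Mb and the rest of the genome 5.31. Wild-type loops held 14.8 per Mb and the rest 6.25. For shared peaks the densities were 25.3 inside and 5.59 outside mutant loops, and 24.9 inside and 6.42 outside wild-type loops. Outside loops the 2 sets were at close densities. Inside loops the order again depended on anchors. Counting peaks at no anchor, mutant loops held 15.5 CH12-absent and 13.3 shared peaks per Mb, and wild-type loops 14.4 and 11.2.

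Seen from the loops, at least 1 CH12-absent peak lay between the anchors in 80.1% (79.3 to 80.8) of 11820 mutant loops, and at least 1 shared peak in 88.9% (88.3 to 89.5). In the 11534 wild-type loops these shares were 75.6% (74.8 to 76.4) for CH12-absent and 84.2% (83.5 to 84.8) for shared peaks. The median mutant loop held 2 CH12-absent and 4 shared peaks, and the median wild-type loop 2 and 3. Shared peaks between the anchors of a loop include peaks at anchors of other loops.

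Strong CH12-absent peaks were inside loops less often than weak ones. In the lowest class of fold, 71.0% (69.6 to 72.3) of CH12-absent peaks were inside mutant loops, in the fifth class 64.6% and in the highest class 53.4% (50.1 to 56.7). For wild-type loops the shares were 62.8% (61.4 to 64.2) in the lowest and 50.1% (46.8 to 53.3) in the highest class. Over all shared peaks there was no such decline, with 72.3% (70.0 to 74.6) in the lowest and 71.9% (70.7 to 73.2) in the highest class inside mutant loops, and 67.8% and 68.9% inside wild-type loops. The share of shared peaks at a mutant anchor, however, was 11.1% in the lowest and 40.1% in the highest class.

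Shared peaks at no anchor declined with fold as CH12-absent peaks did. In mutant loops, CH12-absent peaks at no anchor were at 70.6% (69.2 to 71.9) and shared ones at 68.9% (66.3 to 71.3) in the lowest class. In the highest class they were at 51.5% (48.1 to 54.8) and 53.2% (51.4 to 54.9), so the intervals of the sets overlapped at both ends. In wild-type loops the lowest class had 62.2% (60.7 to 63.6) of CH12-absent and 64.5% (61.8 to 67.0) of shared peaks, and the highest class 47.6% (44.3 to 51.0) and 42.0% (40.1 to 43.8). There the intervals overlapped in the lowest class and not in the highest, where CH12-absent peaks had the larger share. In the fifth class, 64.3% of CH12-absent and 61.9% of shared peaks were in mutant loops, and 57.9% and 54.1% in wild-type loops. The decline with fold is therefore not particular to CH12-absent peaks. The fold classes pool all chromosomes. On chromosome X the CH12-absent peaks had a median fold of 5.64, with 25.2% inside mutant and 22.6% inside wild-type loops. The decline was not computed without chromosome X.

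**Figure D5:**
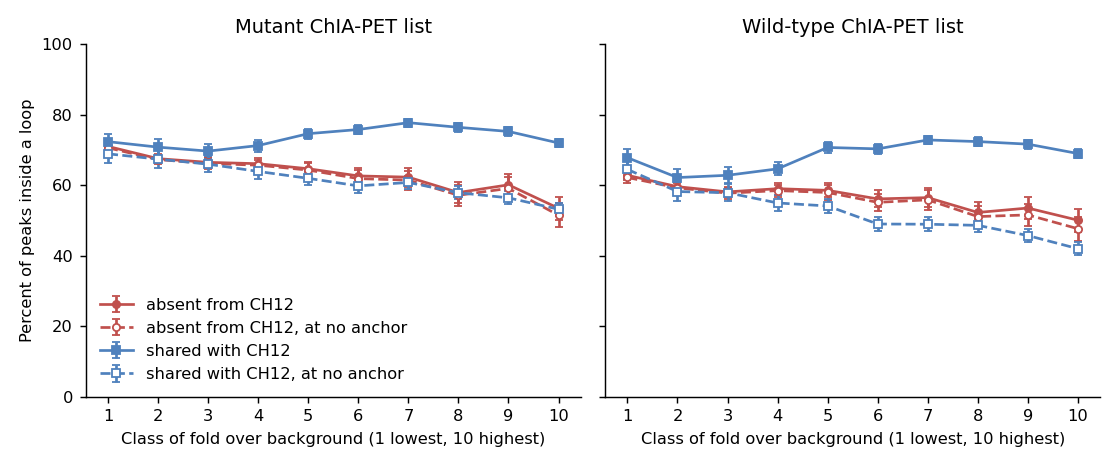
Percent of CH12-absent (circles) and shared (squares) B cell peaks inside a loop of the mutant list (left) and the wild-type list (right), by class of fold over background, with 95% Wilson intervals. Filled symbols are all peaks and open symbols peaks at no anchor of that list. The open symbols decline with fold in both sets, and the filled symbols in CH12-absent peaks alone.

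Both lists together placed 51.5% of CH12-absent peaks inside loops of each, 14.2% inside mutant loops only and 6.99% inside wild-type loops only. A further 27.3% lay inside no loop of either list. Among shared peaks, 61.9% were inside loops of each list, 12.5% inside mutant loops only, 7.83% inside wild-type loops only and 17.8% inside none. Among peaks at no anchor of either list, 50.9% of CH12-absent and 43.8% of shared peaks were inside loops of each list, and 28.0% and 33.9% inside none. Both sets were found more often inside mutant loops alone than inside wild-type loops alone, with 14.3% and 6.91% of CH12-absent and 15.2% and 7.09% of shared peaks at no anchor. With 1 ChIA-PET library per genotype, the mutation and other differences between these libraries cannot be told apart.

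Few CH12-absent peaks lay at loop anchors, which the way the lists were made in large part fixes. The headers say that the authors assigned interactions to called CTCF peaks holding a core motif, and 12280 of 12476 mutant and 13329 of 13547 wild-type anchors carried a CH12 peak. Of all B cell peaks 21.4% overlapped an anchor of the mutant list and 23.2% an anchor of the wild-type list. Of CH12-absent peaks, 390 (1.57%, 1.42 to 1.73) overlapped a mutant anchor and 426 (1.71%, 1.56 to 1.88) a wild-type anchor. For shared peaks the shares were 35.4% at mutant and 38.4% at wild-type anchors. The 1.71% at wild-type anchors turned on how absence was defined. It was 8.48% when peaks whose centres were over 100 bp apart counted as absent, 7.92% with the stronger CH12 peaks alone and 2.82% among B cell peaks from the median fold upward. It was 0.831% with CH12 peaks widened by 1 kb and 1.06% at anchors of loops with 4 or more tags. In all, 607 CH12-absent peaks touched an anchor, 209 of them in both lists, 181 in the mutant list only and 217 in the wild-type list only.

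These peaks were of 2 kinds. The first shared its anchor with a CH12 peak. There were 215 such CH12-absent peaks in the mutant list and 224 in the wild-type list, and 211 and 222 of them lay within 1 kb of a CH12 peak. Their median folds were 3.85 and 3.95, below the 4.62 of all CH12-absent peaks. The second kind lay at an anchor with no CH12 peak. There were 175 such peaks at 167 mutant anchors and 202 at 192 wild-type anchors, and their median folds were 7.25 and 7.24. CH12 peaks lay at a median of 7.63 kb and 10.5 kb from the peaks of this kind in the mutant and the wild-type list.

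Anchors with no CH12 peak mostly carried a B cell peak. The mutant list had 196 such anchors, of which 85.2% overlapped a CH12-absent peak, and the wild-type list had 218, of which 88.1% did. The 2 genotypes shared few of them. Of the 167 mutant anchors with a CH12-absent peak and no CH12 peak, 45 (26.9%) overlapped a wild-type anchor, and of the 192 wild-type anchors, 45 (23.4%) overlapped a mutant anchor. Among anchors with a CH12 peak, 73.6% of the mutant and 67.9% of the wild-type anchors overlapped an anchor of the other list. Anchors with and without a CH12 peak were not matched for the tags of their loops. The loop lists leave out loops with under 3 tags, so an anchor missing from a list is not shown to be unused. The sources used here do not name the cells whose peak calls served to map the interactions.

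The loops of these anchors had few tags. In the mutant list 192 loops (1.62%, 1.41 to 1.87) used such an anchor, with a median of 4 tags and at most 17, against a median of 5 for the other mutant loops. In the wild-type list 221 loops (1.92%, 1.68 to 2.18) did so, with a median of 3 tags and at most 26, against a median of 4 for the other wild-type loops. Of these loops, 36 were in both lists with the same anchors.

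The 5 of these loops with the highest sum of tags over both libraries were named, a choice that favours loops found in both. On chromosome 1, a loop between 172562178 to 172563083 and 172769616 to 172770237 had 14 tags in the mutant library and 26 in the wild-type library. A CH12-absent peak of fold 13.3 covered its right anchor at 172769592 to 172770253, and the nearest CH12 peak was 4.18 kb away. On chromosome 18, a loop between 70353191 to 70353973 and 70579606 to 70580785 had 17 mutant and 10 wild-type tags, with a CH12-absent peak of fold 9.94 at its left anchor. On chromosome 3, a loop between 14874110 to 14875089 and 15244707 to 15245661 had 11 mutant and 16 wild-type tags, with a peak of fold 4.09 at its left anchor. Each of these peaks had a CH12 peak within 10 kb.

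Of the other 2 named loops, 1 had a peak far from any CH12 peak. This loop joined chromosome 5 positions 45865110 to 45866071 with 46059381 to 46060251 and had 13 mutant and 7 wild-type tags. The CH12-absent peak at its right anchor had a fold of 4.73 and was 129 kb from the nearest CH12 peak. The other, on chromosome 19 between 55292327 to 55293695 and 55379277 to 55380273, had 11 mutant and 10 wild-type tags, and the peak at its right anchor had a fold of 7.86 and was 10.4 kb from a CH12 peak. All 5 loops thus had tags in both libraries at anchors where the CH12 list had no peak.

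CH12-absent peaks at no anchor lay at a larger median distance from anchors than shared peaks at no anchor. The median distance between centres to the nearest mutant anchor was 40.8 kb for CH12-absent peaks and 34.6 kb for shared peaks. For wild-type anchors it was 38.1 kb and 33.8 kb. The quartiles overlapped widely, at 14.3 and 115 kb for CH12-absent and 12.2 and 97.1 kb for shared peaks in the mutant list.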

How the data were processed

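CTCF peak lists of B cells and wild-type CH12 cells and 1 CTCF ChIA-PET list each of mutant and wild-type CH12 cells were analysed. The B cell list, deposited by the authors in the narrowPeak layout, gives a fold over background (a ratio) and a −log10 q-value per peak. The deposited CH12 list has peak names that begin with MACS and a score for each peak. The ChIA-PET lists hold counts of supporting tags, with 3 or more tags and a span of at most 2 Mb per the file headers. The sources used here give neither the depth of each library nor whether libraries were pooled for peak calling. The submitters' processing notes name mm9, BWA, bedtools 2.25, SAMtools 1.2, Bowtie 1.1.1 and CASAVA 1.8.2, and give no roles.

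Overlap meant 1 bp or more. Distances were edge to edge except between peaks and anchors, where centres were used. Loops reached from outer end to outer end of their anchors. Fold classes were 10 equal classes of the B cell list. Named regions were the 5 longest runs, the 5 windows with most CH12-absent peaks and the 5 with the highest share, the 3 longest gaps with 3 or more CH12-absent peaks, the 5 peaks of highest fold, the 3 farthest from a CH12 peak, the 3 peaks nearest to the rule on each side and the 5 loops with most tags at an anchor without a CH12 peak. The peaks and these choices were made with earlier results of these data known. No gene names or sequences are given, since neither an mm9 genome nor its annotation was at hand. Interval operations were tested on simulated data. The work used matplotlib 3.10.9, scipy 1.17.1, pandas 2.3.3 and numpy 2.4.6 under Python 3.11.15.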

Additional observations from a re-analysis of the deposited data

How the results depend on the processing

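No paired analysis was possible because each cell type had 1 list and each genotype 1 ChIA-PET library. Of 38 alternatives, 6 gave a value inside the reported 95% interval (for counts, within 1.5 times), 29 did not, and 3 changed the sign of a difference. Signs were scored only for the difference in median fold and the difference inside loops. Centres within 100 bp as the sign of a shared peak gave a CH12-absent share of 48.0% (41.5% as reported), a median fold difference of -2.74 (-3.05), 6.21% over 100 kb from a CH12 peak (7.19%), a difference of -8.13 percentage points inside wild-type loops (-11.3) and 8.48% at wild-type anchors (1.71%), since peaks that overlap off centre then count as absent. Widening CH12 peaks by 1 kb gave 38.1%, -2.85, 7.83% and, at wild-type anchors, 0.831%. B cell peaks at or above the median fold gave 19.3%, -0.60, 11.5%, -17.1 percentage points, 2.82% at anchors, 7 windows with a CH12-absent share of 80% or more (25 as reported) and 105 peaks in runs of 10 or more (1173). CH12 peaks from the median score upward gave 67.6%, -2.79, 18.0%, -16.0 percentage points, 7.92% at anchors, 363 windows and 10803 peaks, as fewer CH12 peaks were counted. Windows of 500 kb gave 44 windows and windows of 2 Mb gave 8. Loops of 500 kb or less gave -12.7 percentage points and the mutant list -8.65. The 3 that changed the sign, added after the data were seen, took peaks at no anchor, which removes mostly shared peaks that are inside their own loops. They gave 6.92 percentage points in the wild-type list, 4.91 in the mutant list and 6.06 in the wild-type list with B cell peaks from the median fold upward. At wild-type anchors, loops with 4 or more tags gave 1.06% and peak centres inside the anchor 1.44%. Elsewhere the cause was not tested. The thresholds of the 2 peak lists limit these results: a peak missing from the CH12 list is not shown to be unbound in CH12 cells, and the depth of neither list is known here.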
